A study of Mus musculus with 9 samples.

Results

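This account follows 35 genes of inflammation in mouse corona radiata cells: cytokines, chemokines, NF-kB factors and their sensors, and neutrophil genes. They were chosen by symbol, as a list of names, from the 54838 genes of the deposited RPKM matrix (reads per kilobase of gene, scaled to library size). All 35 were found in the matrix. The filter for testing asked for 3 or more libraries with 1 RPKM or more, which 27 of the 35 passed, as did 16422 genes in all. Of these 27, 5 would have missed the filter without the libraries of 1 genotype: Icam1, S100a9 and Trem1 without LXR DKO, Il6ra without transgenic, and Cxcl2 without either. The list falls into 7 groups by role: 5 genes of IL-1 signalling, 5 of IL-6 and TNF signalling, 4 CXC chemokines, 5 CC chemokines, 5 NF-kB factors, 4 sensors and adhesion genes, and 7 neutrophil genes.

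Corona radiata cells are the innermost granulosa-derived cumulus cells around the oocyte. They came from adult mice, all of which had received PMSG and hCG, the hormones that drive follicle growth and trigger ovulation; a term in the labels, J4, is not explained there. The 3 genotypes had 3 libraries each: LXR DKO mice with the transgene TG-AMH-LXRb (called transgenic here), mice lacking both liver X receptors (LXR DKO), and wild type (WT). The transgenic mice thus carried the double knockout too. Liver X receptors are nuclear receptors for oxysterols, which in macrophages are known to restrain inflammatory genes. The promoter and coding sequence of the transgene and the deleted parts of the receptor genes are not described in the labels. The labels name no animal for any library, so p-values here speak only of the spread among these samples, and that spread may be technical.

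In the NF-kB pathway, Toll-like receptors and the IL-1 receptor signal through the adaptor MYD88, and TNF through its own receptors, to free NF-kB dimers from the inhibitor IkB alpha, the product of Nfkbia. The dimers switch on cytokines, chemokines and also their own brakes, among them Nfkbia and Tnfaip3. The chemokines CXCL1 and CXCL2 attract neutrophils through the receptor CXCR2. Ovulation is known to resemble an inflammatory reaction, with cytokine release and entry of leukocytes into the ovary.

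Promoters of 4 of the genes are shown, because 3 of them hold the same kappa B motif, the DNA word read by NF-kB, while their levels differ widely. RefSeq windows on build GRCm38.p6, from 250 bases before to 50 bases after the transcription start, were given for 28 of the 35 genes. The kappa B consensus, searched on both strands, was found in windows of 12 of these 28 genes (42.9%), against 9.55% of all 27025 genes in the table. Genes with a match were not particular to those high in LXR DKO 2. A match was held by 4 of the 10 genes at least 2 times higher there than in both other LXR DKO libraries. Of the 18 others, 8 held one. The 10 letters of the match at Nfkbia, GGGAATTTCC on 1 strand or the other, were found in 3 of the 28, Cxcl1, Cxcl2 and Nfkbia. Nfkbia holds them by definition, since the letters were taken from its window, so the count is not a measure of enrichment. Of all genes, 0.107% held them. Each line below gives the 130 bases before the start, 5′ to 3′ along the gene, with the match to the consensus in capitals. In Cxcl1 and Cxcl2 the capitals run to 11 letters because 2 matches on opposite strands overlap. The windows are chr5:90891115-90891244 (plus strand) for Cxcl1, chr5:90903769-90903898 (plus strand) for Cxcl2, chr5:30012984-30013113 (plus strand) for Il6, and chr12:55492648-55492777 (minus strand) for Nfkbia.
Cxcl1: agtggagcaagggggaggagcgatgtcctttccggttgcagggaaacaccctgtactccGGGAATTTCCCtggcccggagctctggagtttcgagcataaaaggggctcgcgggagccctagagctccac
Cxcl2: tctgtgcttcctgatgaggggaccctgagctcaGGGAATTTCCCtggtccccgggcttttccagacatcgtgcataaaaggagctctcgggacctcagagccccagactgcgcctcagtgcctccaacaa
Il6: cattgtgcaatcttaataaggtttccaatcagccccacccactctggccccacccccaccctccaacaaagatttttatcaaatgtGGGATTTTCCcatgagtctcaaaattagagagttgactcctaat
Nfkbia: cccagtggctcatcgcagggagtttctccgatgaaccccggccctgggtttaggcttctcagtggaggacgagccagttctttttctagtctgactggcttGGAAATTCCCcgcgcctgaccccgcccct
A match describes letters in a window and does not show binding. Measured from the start, the matches began at -71 in Cxcl1, -97 in Cxcl2, -44 in Il6 and -29 in Nfkbia.

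Before the values, the libraries need a short description. Reads in genes, worked back from the RPKM values, ranged from 29822412 to 44049966 per library, and 3 reads in a gene with 1 kb of exons correspond to an RPKM of 0.0638 to 0.0965. The summed level of the 12 granulosa and cumulus markers ran from 1965 to 2155 RPKM in transgenic libraries, from 2031 to 2449 in LXR DKO libraries and from 2379 to 2711 in WT libraries, with none at 0. Nr1h2, which encodes LXR beta, measured 4.83 to 6.70 RPKM in transgenic, 2.85 to 3.57 in LXR DKO libraries and 39.7 to 45.7 in WT libraries. RNA of other cells was present and uneven. Oocyte markers (8 genes) summed to 451 RPKM in LXR DKO 1, to 739 in WT 1, and to at most 45.2 in any other library. Erythroid markers (6 genes) summed to 9881 RPKM in WT 3 and at most 970 elsewhere, and oviduct epithelium markers (6 genes) to 1506 to 2096 in transgenic, 365 to 833 in LXR DKO libraries and 196 to 1462 in WT libraries, WT 3 being the highest of the WT libraries.

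The inflammatory genes were low in most libraries, and 1 library, LXR DKO 2, stood above the rest. It held the highest level of 23 of the 35 genes (65.7%), whereas it held the highest level of 5.87% of all genes tested, and of 7.87% of those with a mean under 5 RPKM. Its level was at least 2 times that of both other LXR DKO libraries for 10 of the 35 genes (28.6%). Among the 27 tested there were 6, against 1.00% of all genes tested and 1.97% of those with a mean under 5 RPKM. Those 10 were Cxcl1, Cxcl10, Cxcl2, Il1a, S100a8, Cxcl12, Il6, S100a9, Trem1 and Retnlg, with ratios to the higher of the other LXR DKO libraries that ran from 13.6 for Cxcl1 down to 2.50 for Retnlg. The mean log2(RPKM + 1) over the 35 genes was 1.95, 1.84 and 1.90 in the transgenic libraries, 1.97, 2.71 and 2.13 in those of LXR DKO and 1.76, 1.82 and 1.91 in those of WT, each in the order of the replicate numbers, as below. LXR DKO 1 and LXR DKO 3 thus lay only slightly above the highest library of the other genotypes, and LXR DKO 2 well above it. The mean of each of the 7 role groups was also highest in LXR DKO 2.

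**Figure D1:**
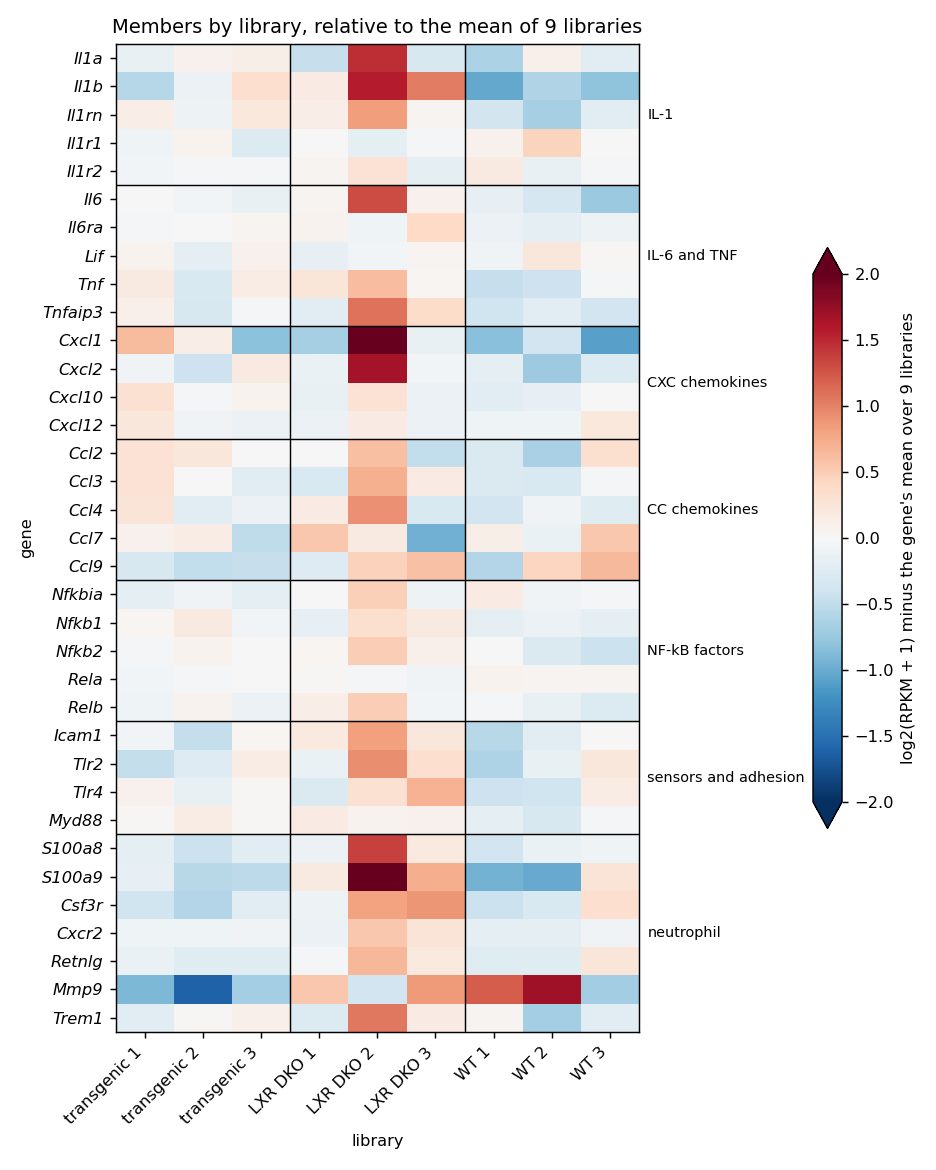
Level of each of the 35 genes (rows, grouped by role) in each of the 9 libraries (columns), as log2(RPKM + 1) minus the gene's mean over the 9 libraries. The column of LXR DKO 2 is red for most genes and darkest for Cxcl1, Cxcl2 and S100a9; Mmp9 is the neutrophil gene that is blue there, and Rela is near white throughout.

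**Figure D2:**
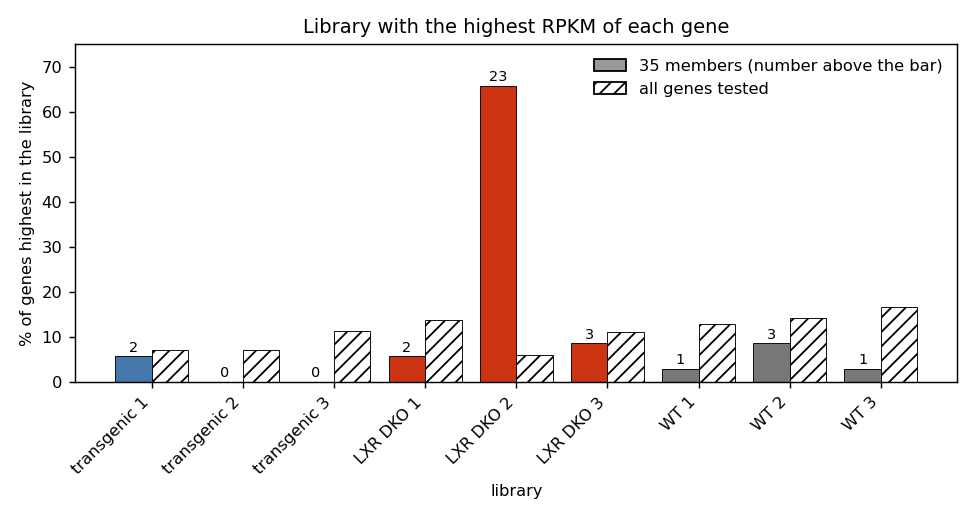
Share of genes (y axis, %) whose highest RPKM falls in each library (x axis), for the 35 genes in solid bars with their number above and for all 16422 genes tested in hatched bars. LXR DKO 2 holds 23 of the 35 genes but 5.87% of all genes tested.

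The comparison of LXR DKO with WT libraries asks which of these genes differ when both receptors are missing. Of the 27 genes tested, 1 rose, 0 fell and 26 did not pass the threshold (limma on log2(RPKM + 1), Benjamini-Hochberg adjusted p of 0.05 over all genes tested). Over all genes tested 10.6% passed, 3.47% higher and 7.12% lower, so a single call among 27 is close to the background. At an unadjusted p under 0.05 there were 9. The share of all genes tested at that cutoff was not counted. It is at least the 10.6% above, so the 9 are not read as an excess. Direction was less even: 29 of the 35 log2 fold changes lay above 0, with a median of 0.41 against 0.02 over all genes tested, where 52.5% lay above 0. Every LXR DKO library exceeded every WT library in 9 genes (25.7%; 13.1% of all genes tested), namely Il1b, Il1rn, Il6, Il6ra, Tnf, Cxcl2, Nfkb2, Icam1 and Myd88, and was below every WT library in 2, Il1r1 and Rela (15.9% of all genes tested). Without LXR DKO 2 the median of the 35 was 0.22, 20 of the 27 tested genes had a fold change above 0 in place of 23, and 0 passed, where 1.54% of all genes tested passed higher and 3.58% lower. LXR DKO 1 and LXR DKO 3 alone lay above every WT library in the same 9 genes, where 16.9% of all genes tested did. Leaving out a library cannot lower this count, so it is no separate support.

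**Figure D3:**
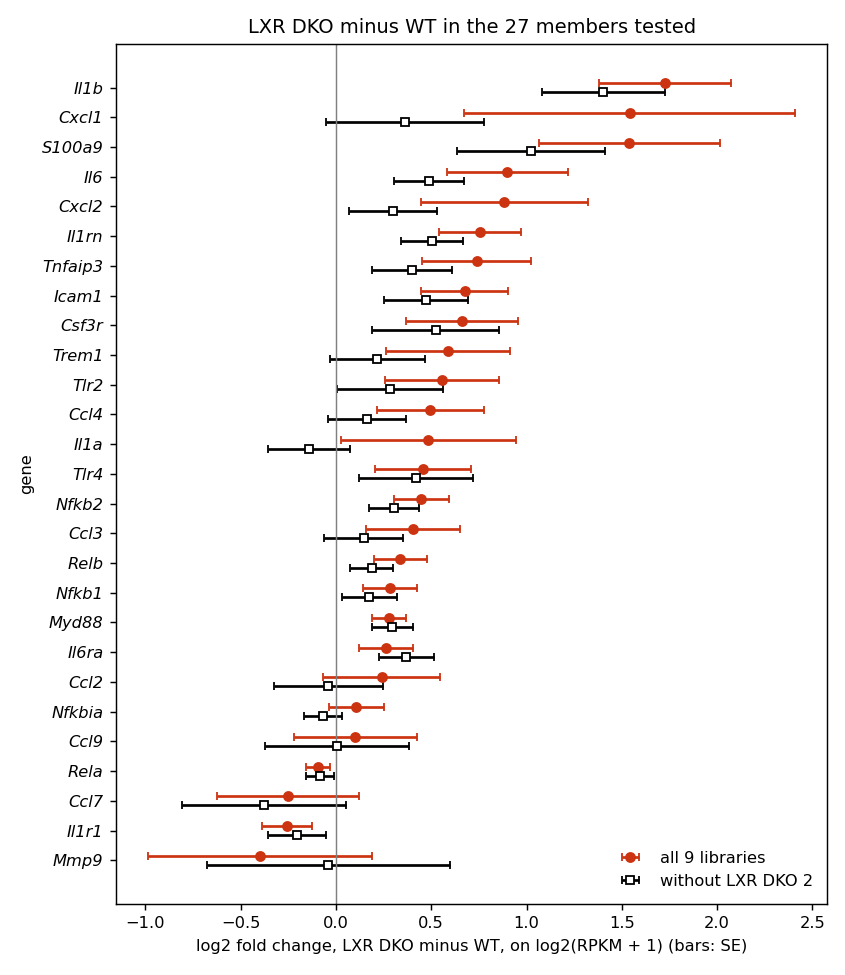
Log2 fold change of LXR DKO minus WT (x axis, on log2(RPKM + 1), bars SE) for the 27 genes tested (rows), with all 9 libraries (red circles) and without LXR DKO 2 (open squares). Fold changes of 24 of the 27 genes were closer to 0 without LXR DKO 2; for Cxcl1 it was 0.36 in place of 1.54, and for Il1b 1.40 in place of 1.73.

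Among the IL-1 genes, the ligand gene Il1b rose in LXR DKO. Il1b (ENSMUSG00000027398, mm10 chromosome 2, 129364570 to 129371139) encodes the secreted cytokine IL-1 beta. It measured 2.13, 3.31 and 4.90 RPKM in transgenic, 4.21, 12.8 and 8.45 in LXR DKO and 1.30, 2.07 and 1.66 in WT libraries. LXR DKO libraries all lay above WT libraries, transgenic libraries lay above WT too, and transgenic and LXR DKO overlapped, because transgenic 3 exceeded LXR DKO 1. The log2 fold change of LXR DKO minus WT was 1.73 ± 0.35 (SE; limma, adjusted p = 0.0175). Transgenic minus LXR DKO was -1.03 ± 0.35 (limma, adjusted p = 0.468) and transgenic minus WT 0.69 ± 0.35 (adjusted p = 0.213). The call was lost without LXR DKO 2 (1.40 ± 0.32, adjusted p = 0.0515), WT 1 (adjusted p = 0.0561) or LXR DKO 3 (adjusted p = 0.0717), or with no filter (0.0541), at fold changes of 1.40 to 1.73. Over the 21 alternative settings tried, its adjusted p ran from 0.00568 to 0.0717.

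Il1rn, which encodes the antagonist that competes with IL-1 for its receptor, ran in the same direction. It measured 5.43, 4.45 and 5.81 RPKM in transgenic, 5.40, 9.47 and 5.06 in LXR DKO and 3.55, 2.69 and 4.04 in WT libraries. All libraries of both knockout genotypes lay above WT. The difference did not pass for LXR DKO minus WT (0.75 ± 0.22, limma, adjusted p = 0.0588) or transgenic minus WT (0.50 ± 0.22, adjusted p = 0.158). Without WT 3 LXR DKO minus WT passed (0.85 ± 0.23, adjusted p = 0.0488), and without WT 3 and LXR DKO 2 together transgenic minus WT did (0.60 ± 0.14, adjusted p = 0.0258). Il1a, the gene of the other ligand, measured 1.95, 2.48 and 2.54 RPKM in transgenic, 1.38, 8.11 and 1.60 in LXR DKO and 1.10, 2.50 and 1.79 in WT libraries. LXR DKO 2 alone was high; the other LXR DKO libraries lay inside the WT range, and without LXR DKO 2 the fold change against WT was -0.14 ± 0.21 in place of 0.48 ± 0.46 (limma, adjusted p = 0.771 and 0.555).

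The signalling receptor gene Il1r1 was the most abundant of the IL-1 genes per kilobase. It measured 19.1, 21.4 and 16.8 RPKM in transgenic, 20.3, 17.9 and 19.8 in LXR DKO and 21.7, 28.2 and 20.6 in WT libraries. LXR DKO lay below WT in every library by a narrow margin, and the difference did not pass (-0.26 ± 0.13, limma, adjusted p = 0.256). Il1r2, the decoy receptor gene, stayed at or under 0.470 RPKM everywhere and was not tested.

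In the IL-6 and TNF group, none of the 3 genes tested passed in any comparison. Il6, the cytokine gene (ENSMUSG00000025746, chromosome 5, 30013114 to 30019981), measured 1.48, 1.38 and 1.23 RPKM in transgenic, 1.58, 5.11 and 1.62 in LXR DKO and 1.20, 0.968 and 0.473 in WT libraries. The genotypes did not overlap, with LXR DKO above transgenic and transgenic above WT. The gaps were narrow apart from LXR DKO 2, whose level was 3.15 times that of LXR DKO 3. The fold change of LXR DKO minus WT was 0.90 ± 0.32 (limma, adjusted p = 0.109), and 0.49 ± 0.18 without LXR DKO 2 (adjusted p = 0.176).

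Tnf (ENSMUSG00000024401, chromosome 17, 35199381 to 35202007), the gene of tumour necrosis factor, was too low to be tested. It measured 0.658, 0.196 and 0.629 RPKM in transgenic, 0.742, 1.26 and 0.513 in LXR DKO and 0.0693, 0.0989 and 0.428 in WT libraries, which corresponds to 50, 10 and 35 reads in transgenic, 51, 69 and 29 in LXR DKO and 5, 6 and 33 in WT. LXR DKO lay above WT in every library, while transgenic overlapped both. WT 3, the library rich in erythroid RNA, was the highest WT library.

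Il6ra, the gene of the IL-6 binding receptor, measured 1.00, 1.09 and 1.16 RPKM in transgenic, 1.18, 0.944 and 1.72 in LXR DKO and 0.909, 0.813 and 0.930 in WT libraries. LXR DKO 2 was here the lowest LXR DKO library, and the difference between LXR DKO and WT was 0.26 ± 0.14 (limma, adjusted p = 0.277). Tnfaip3, the gene of the NF-kB brake A20, averaged 1.78 ± 0.402 RPKM in transgenic, 3.14 ± 1.88 in LXR DKO and 1.32 ± 0.177 in WT libraries (SD, n = 3 each), a difference between LXR DKO and WT of 0.74 ± 0.29 that did not pass (limma, adjusted p = 0.141) but passed without LXR DKO 1 (1.06 ± 0.23, adjusted p = 0.0264). Lif, an IL-6 family cytokine gene, stayed at or under 0.453 RPKM in all 9 libraries and was not tested.

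**Figure D4:**
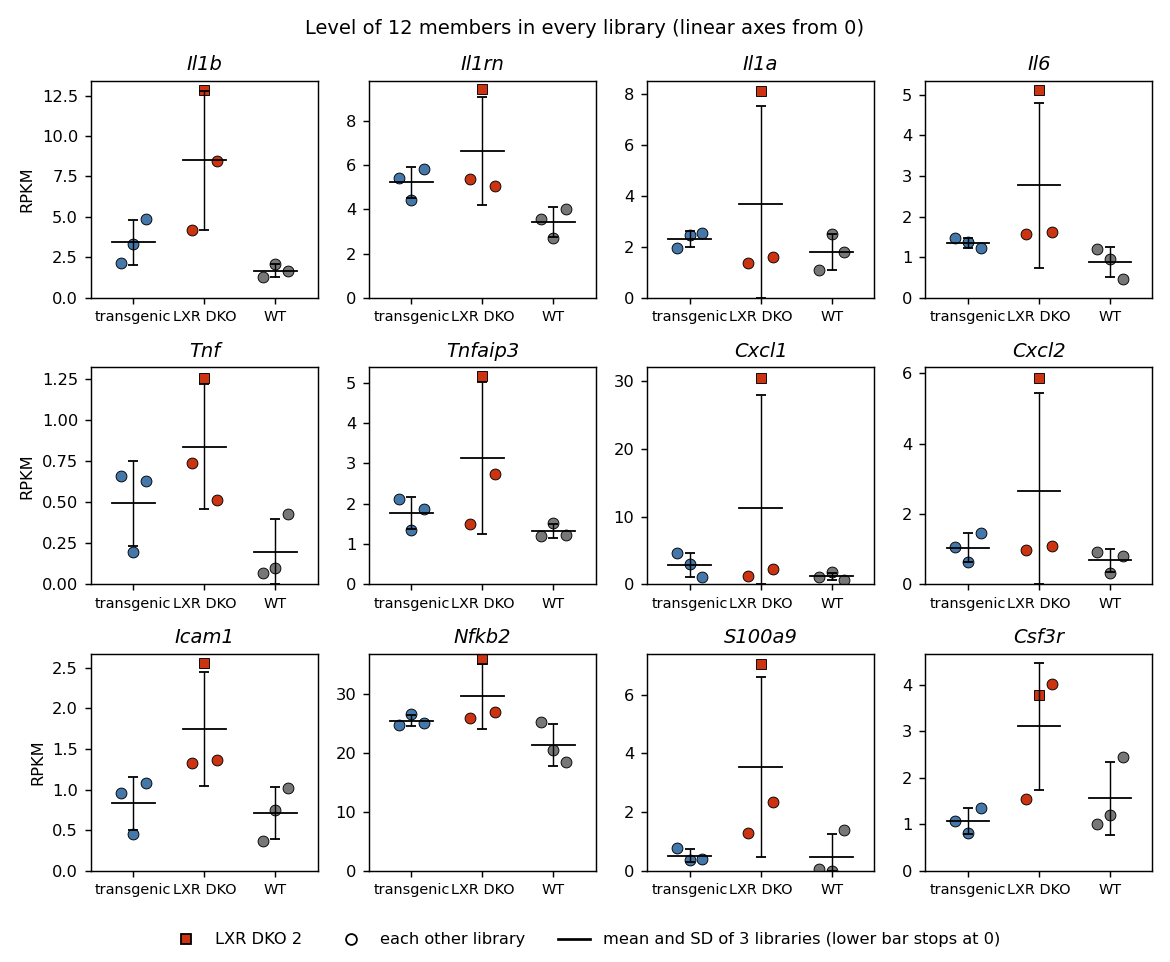
RPKM (y axes, linear from 0) of 12 of the genes in each library of the 3 genotypes (x axis), with the mean and SD of 3 libraries; the red square is LXR DKO 2. For Cxcl1 the square lies at 30.5 RPKM while the other LXR DKO libraries lie at 1.27 and 2.24; for Il1b, Il1rn and Icam1 the other LXR DKO libraries also lie above WT.

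Among the CXC chemokines, Cxcl1 had the largest ratio of LXR DKO 2 to the higher of the other LXR DKO libraries of all 35 genes. Cxcl1 (ENSMUSG00000029380, chromosome 5, 90891241 to 90893115) measured 4.58, 2.93 and 1.04 RPKM in transgenic, 1.27, 30.5 and 2.24 in LXR DKO and 1.02, 1.76 and 0.692 in WT libraries. In reads, LXR DKO 2 held 1915 where LXR DKO 1 held 100 and LXR DKO 3 held 145, a gap far larger than counting error. Apart from LXR DKO 2 the genotypes overlapped, and the highest of those libraries was transgenic 1. The mean of LXR DKO was 11.3 ± 16.6 RPKM against 1.16 ± 0.546 in WT (SD, n = 3 each), and the fold change of 1.54 ± 0.87 did not pass (limma, adjusted p = 0.302). Without LXR DKO 2 it was 0.36 ± 0.41 (adjusted p = 0.683). For Il1a, Il6, Cxcl1 and Cxcl2 no alternative setting passed in this comparison (adjusted p of 0.0733 to 0.816).

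Cxcl2 (ENSMUSG00000058427, chromosome 5, 90903871 to 90905938), which lies next to Cxcl1 on that chromosome, measured 1.05, 0.622 and 1.45 RPKM in transgenic, 0.980, 5.87 and 1.09 in LXR DKO and 0.912, 0.313 and 0.802 in WT libraries. LXR DKO lay above WT in every library, but in 2 of the 3 by little, and the fold change of 0.88 ± 0.44 (limma, adjusted p = 0.239) was 0.30 ± 0.23 without LXR DKO 2 (adjusted p = 0.511). Nfkbia, whose window holds the same 10 letters, was the most abundant of the 35 genes per kilobase, and LXR DKO 2 stood above the next LXR DKO library by 1.39 times there.

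The other CXC chemokine genes were near the floor. Cxcl10, an interferon-induced chemokine gene, measured 0.422, 0.129 and 0.209 RPKM in transgenic, 0.0424, 0.411 and 0.0643 in LXR DKO and 0, 0.0360 and 0.160 in WT libraries. Transgenic 1 and LXR DKO 2 were about equally high. Cxcl12, the gene of the ligand of CXCR4, measured 0.393, 0.142 and 0.108 RPKM in transgenic, 0.0992, 0.333 and 0.0993 in LXR DKO and 0.128, 0.126 and 0.387 in WT libraries, so that 1 library of each genotype was high.

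The 5 CC chemokine genes, which mainly encode attractants of monocytes and macrophages, had 0 calls in the 3 comparisons. Ccl2, the main monocyte attractant, measured 2.41, 2.26 and 1.81 RPKM in transgenic, 1.80, 3.23 and 0.993 in LXR DKO and 1.30, 0.783 and 2.50 in WT libraries. The 3 genotypes overlapped fully, and LXR DKO 3 was among the lowest of the 9. Ccl7, its neighbour on chromosome 11, averaged 2.53 ± 0.824 RPKM in transgenic, 2.82 ± 1.76 in LXR DKO and 3.24 ± 1.02 in WT libraries (SD, n = 3 each), and LXR DKO 2 was not the highest library. Ccl3 and Ccl4, the genes of macrophage inflammatory proteins, averaged 1.60 ± 0.452 and 2.00 ± 0.538 RPKM in transgenic, 2.02 ± 1.06 and 2.85 ± 1.68 in LXR DKO and 1.20 ± 0.236 and 1.58 ± 0.289 in WT libraries. Ccl9 averaged 3.07 ± 0.275 RPKM in transgenic, 5.77 ± 1.94 in LXR DKO and 5.51 ± 2.55 in WT libraries; every transgenic library lay below every LXR DKO library, and the difference of -0.69 ± 0.32 did not pass (limma, adjusted p = 0.638).

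Among the NF-kB factors, Nfkbia and Rela had the highest mean RPKM of the 35 genes in each genotype. Nfkbia (ENSMUSG00000021025, chromosome 12, 55489410 to 55492647) measured 108, 117 and 108 RPKM in transgenic, 123, 171 and 114 in LXR DKO and 137, 117 and 119 in WT libraries. LXR DKO 2 was the highest of the 9, LXR DKO 1 and LXR DKO 3 lay within or below the WT range, and every transgenic library lay below every WT library by a small margin (-0.16 ± 0.15, limma, adjusted p = 0.483). Rela, the gene of the p65 subunit, measured 63.4, 64.1 and 65.0 RPKM in transgenic, 66.5, 63.6 and 62.8 in LXR DKO and 69.3, 68.2 and 68.1 in WT libraries. Both knockout genotypes lay below WT, at a fold change of -0.09 ± 0.06 for LXR DKO minus WT that did not pass (limma, adjusted p = 0.391), and LXR DKO 2 did not stand out.

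The precursor genes of the p50 and p52 subunits differed in level. Nfkb1 measured 2.31, 2.68 and 2.12 RPKM in transgenic, 1.88, 3.06 and 2.68 in LXR DKO and 1.83, 1.99 and 1.83 in WT libraries, with transgenic but not LXR DKO wholly above WT (0.22 ± 0.14, limma, adjusted p = 0.321). Nfkb2 measured 24.8, 26.6 and 25.2 RPKM in transgenic, 25.9, 35.9 and 26.9 in LXR DKO and 25.3, 20.4 and 18.4 in WT libraries. Its LXR DKO libraries lay above WT, LXR DKO 1 narrowly, and the fold change of 0.45 ± 0.14 did not pass (limma, adjusted p = 0.0858); without LXR DKO 1 and WT 1 together it did (0.65 ± 0.14, adjusted p = 0.0447). Relb, the partner of p52, averaged 14.2 ± 1.08 RPKM in transgenic, 17.1 ± 3.57 in LXR DKO and 13.2 ± 1.18 in WT libraries (SD, n = 3 each; LXR DKO minus WT 0.34 ± 0.14, limma, adjusted p = 0.161). LXR DKO 2 was highest of the 9 for Nfkbia, Nfkb1, Nfkb2 and Relb, at 1.14 to 1.39 times the next LXR DKO library.

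Among sensors and adhesion genes, Myd88 and Icam1 separated LXR DKO from WT without LXR DKO 2 standing apart for Myd88. Myd88 measured 19.3, 21.1 and 19.4 RPKM in transgenic, 21.4, 20.0 and 20.2 in LXR DKO and 16.7, 15.05 and 18.6 in WT libraries. Both knockout genotypes lay above WT in every library, by 0.28 ± 0.09 for LXR DKO (limma, adjusted p = 0.0825) and 0.24 ± 0.09 for transgenic (adjusted p = 0.117). Without WT 3 both passed, at 0.35 (adjusted p = 0.0319) and 0.31 (adjusted p = 0.033), and over all alternatives the adjusted p ran from 0.0308 to 0.238 and from 0.0242 to 0.289. Icam1, the gene of an adhesion molecule to which leukocytes bind, measured 0.955, 0.457 and 1.08 RPKM in transgenic, 1.32, 2.56 and 1.37 in LXR DKO and 0.370, 0.743 and 1.02 in WT libraries. Every LXR DKO library lay above all others, and neither LXR DKO minus WT (0.67 ± 0.23, limma, adjusted p = 0.097) nor transgenic minus LXR DKO (-0.58 ± 0.23, adjusted p = 0.566) passed. Icam1 would have missed the filter without the LXR DKO libraries, where it was high.

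Tlr4, the gene of the endotoxin receptor, measured 1.64, 1.23 and 1.51 RPKM in transgenic, 1.03, 2.08 and 3.00 in LXR DKO and 0.858, 0.890 and 1.75 in WT libraries. LXR DKO 3 was the highest and LXR DKO 1 lay among the WT libraries (LXR DKO minus WT 0.46 ± 0.25, limma, adjusted p = 0.291). Tlr2, the gene of a receptor for bacterial lipoproteins, averaged 6.12 ± 1.59 RPKM in transgenic, 9.89 ± 4.0 in LXR DKO and 6.28 ± 2.07 in WT libraries (SD, n = 3 each; 0.56 ± 0.30, limma, adjusted p = 0.276).

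**Figure D5:**
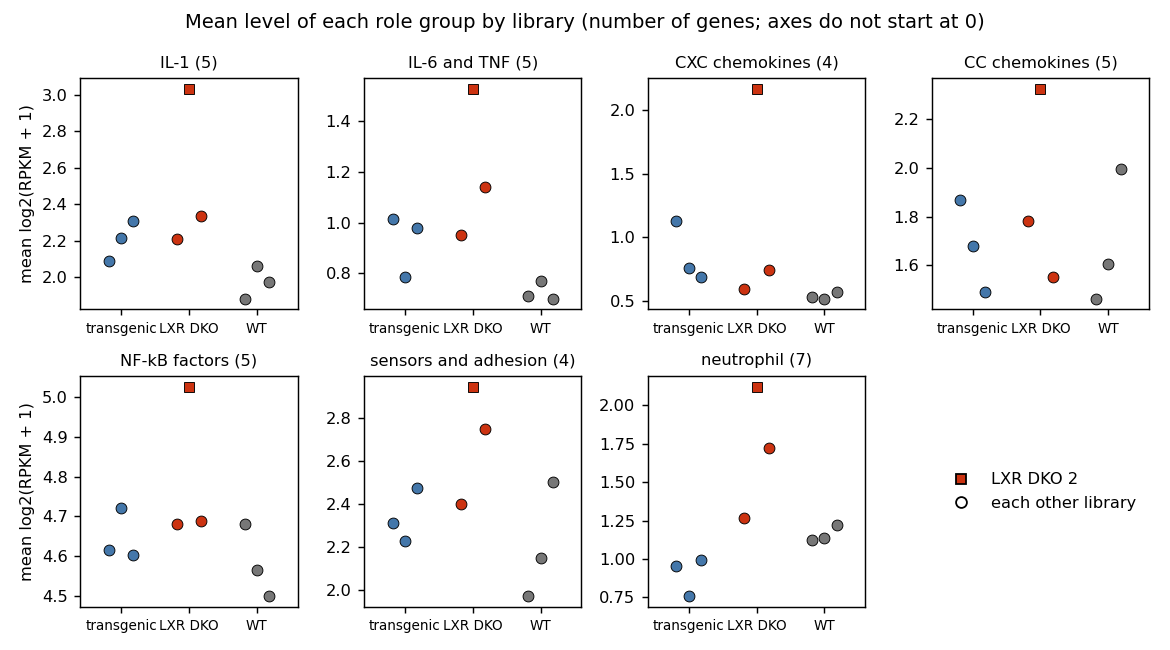
Mean log2(RPKM + 1) of each role group (panels, with the number of genes; y axes do not start at 0) in each library of the 3 genotypes (x axis), with LXR DKO 2 as a red square. LXR DKO 2 is highest in all 7 panels. LXR DKO 3 is second in the IL-1, IL-6 and TNF, sensor and neutrophil panels. The transgenic libraries are the lowest in the neutrophil panel, which includes Mmp9. That gene measured 6.60 to 13.6 RPKM in transgenic and 13.3 to 74.4 in WT libraries. On log2(RPKM + 0.1), transgenic 1 and transgenic 3 (-0.53 and -0.59) lay above WT 1 and WT 2 (-0.90 and -0.95) in that group. Transgenic 2 stayed the lowest (-1.08).

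The neutrophil genes were low in most libraries and highest in LXR DKO 2 or LXR DKO 3, except for Mmp9. S100a8 and S100a9 encode the subunits of calprotectin, the most abundant cytosolic protein complex of neutrophils. S100a9 (ENSMUSG00000056071, chromosome 3, 90692632 to 90695721) measured 0.786, 0.370 and 0.395 RPKM in transgenic, 1.28, 7.04 and 2.33 in LXR DKO and 0.0435, 0 and 1.38 in WT libraries. Transgenic lay below LXR DKO in every library, LXR DKO 1 lay below WT 3, and neither LXR DKO minus WT (1.54 ± 0.47, limma, adjusted p = 0.0743) nor transgenic minus LXR DKO (-1.39 ± 0.47, adjusted p = 0.482) passed. Without WT 3 LXR DKO minus WT passed at 1.95 ± 0.44 (adjusted p = 0.0275) and without LXR DKO 1 at 1.93 ± 0.47 (adjusted p = 0.0389); without LXR DKO 2 it was 1.02 ± 0.39 (adjusted p = 0.179), and without both WT 3 and LXR DKO 2 it passed at 1.43 ± 0.23 (adjusted p = 0.0176). Over all its alternatives the adjusted p ran from 0.0116 to 0.182. S100a9 would have missed the filter without the LXR DKO libraries, where it was high. Its calls are thus not independent of that selection.

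S100a8 was not tested and measured 0.187, 0 and 0.170 RPKM in transgenic, 0.241, 2.50 and 0.543 in LXR DKO and 0.0327, 0.234 and 0.276 in WT libraries, or 6, 0 and 4 reads in transgenic, 7, 58 and 13 in LXR DKO and 1, 6 and 9 in WT. Cxcr2, the receptor gene for CXCL1 and CXCL2, measured 0.0708, 0.0739 and 0.0870 RPKM in transgenic, 0.0469, 0.647 and 0.361 in LXR DKO and 0, 0 and 0.0767 in WT libraries. Retnlg, which mouse neutrophils express, measured 0.0728, 0 and 0 RPKM in transgenic, 0.161, 0.857 and 0.342 in LXR DKO and 0, 0 and 0.394 in WT libraries. All 3 were highest in LXR DKO 2 and rested on few reads, at most 66 in a library for Cxcr2 and 17 for Retnlg.

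Csf3r, the gene of the receptor for granulocyte colony-stimulating factor, measured 1.07, 0.802 and 1.36 RPKM in transgenic, 1.53, 3.77 and 4.02 in LXR DKO and 1.01, 1.20 and 2.45 in WT libraries. LXR DKO 3 was as high as LXR DKO 2, transgenic lay wholly below LXR DKO (-0.93 ± 0.29, limma, adjusted p = 0.415), and LXR DKO minus WT was 0.66 ± 0.29 (adjusted p = 0.19). Without LXR DKO 1 LXR DKO minus WT passed at 0.98 ± 0.24 (adjusted p = 0.0392; 0.0179 to 0.469 over all alternatives). Trem1, a receptor gene that amplifies inflammation in neutrophils and monocytes, measured 0.648, 0.956 and 1.06 RPKM in transgenic, 0.589, 3.01 and 1.16 in LXR DKO and 1.01, 0.207 and 0.667 in WT libraries, with LXR DKO 2 alone outside the range of the others by more than 1 RPKM.

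Mmp9, a gelatinase gene of neutrophils and of other cells, went the other way. It averaged 10.5 ± 3.57 RPKM in transgenic, 30.3 ± 12.3 in LXR DKO and 46.8 ± 30.9 in WT libraries (SD, n = 3 each). LXR DKO 2 was the lowest LXR DKO library, at 0.412 times the next one, and WT 3 the lowest WT library at 13.3 RPKM. Transgenic lay below LXR DKO in every library (-1.40 ± 0.59, limma, adjusted p = 0.601; -1.76 ± 0.28, adjusted p = 0.0397, without both WT 3 and LXR DKO 2), and transgenic minus WT was -1.80 ± 0.59 (adjusted p = 0.0803). Without WT 3 it passed at -2.52 ± 0.38 (adjusted p = 0.00361; 0.00207 to 0.212 over all alternatives).

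Transgenic libraries were compared with LXR DKO libraries to ask which genes differ when the transgene is added to the knockout. None of the 27 genes tested passed in either direction, where 0.116% of all genes tested did, 9 higher (0.0548%) and 10 lower (0.0609%). An unadjusted p under 0.05 was found for 5 of the 27. The share of all genes tested at that cutoff was not counted, so the 5 are not read as an excess. Of the 35 fold changes 31 lay below 0, with a median of -0.27 against 0.01 over all genes tested. Every transgenic library lay below every LXR DKO library in 8 genes (22.9%; 7.05% of all genes tested), which were Il6, Ccl9, Icam1, S100a8, S100a9, Csf3r, Retnlg and Mmp9. Neutrophil genes made up 5 of the 8, but S100a8 and Retnlg were not tested and rested on few reads. S100a8 had 6, 0 and 4 reads in transgenic and 7 in LXR DKO 1, and Retnlg 2, 0 and 0 and 4. Of the 14 neutrophil markers described below, Ltf and Mmp8 lay wholly above LXR DKO in transgenic libraries, and Clec4d and Cd177 wholly below. Of the 8, Il6 and Icam1 were the 2 genes in which LXR DKO also lay wholly above WT. Without LXR DKO 2 the median over the genes tested was -0.07 and 8 of the 27 had a fold change above 0, against 1 of 27 with it.

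Transgenic libraries were also compared with WT. Of the 27 genes tested 0 passed, where 11.9% of all genes tested did, 5.15% higher and 6.72% lower. An unadjusted p under 0.05 was found for 3 of the 27. The share of all genes tested at that cutoff was not counted and is at least 11.9%. The median of the 35 fold changes was 0.15, and 23 lay above 0. Transgenic lay wholly above WT in Il1b, Il1rn, Il6, Il6ra, Nfkb1 and Myd88 (6 genes; 16.8% of all genes tested) and wholly below it in Nfkbia and Rela (2 genes; 18.9% of all genes tested). The comparisons share libraries, so their fold changes are not independent.

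Genes of the same pathways outside the 35 were counted from 4 further lists. Of 28 NF-kB pathway genes tested, 3 rose and 1 fell in LXR DKO against WT. The share of all genes tested was 3.47% higher and 7.12% lower, against which the counts of all 4 lists are to be read. Tnfrsf1b, the gene of the second TNF receptor, measured 12.9, 14.0 and 12.6 RPKM in transgenic, 15.7, 22.5 and 22.8 in LXR DKO and 10.8, 11.7 and 9.41 in WT libraries, and rose by 0.86 ± 0.14 in LXR DKO (limma, adjusted p = 0.0086), a call kept without any single library (adjusted p up to 0.0417). The adaptor genes Traf3 (0.50 ± 0.12, adjusted p = 0.0349) and Traf2 (0.38 ± 0.09, adjusted p = 0.0354) rose, and the kinase gene Irak2 fell (-0.31 ± 0.08, adjusted p = 0.036). With 1 library left out at a time, Traf3 passed in 2 cases, those lacking LXR DKO 1 or WT 2 (highest adjusted p 0.117), Traf2 in 3, those lacking transgenic 2, transgenic 3 or WT 3 (highest 0.108), and Irak2 in 2, those lacking LXR DKO 2 or WT 3 (highest 0.127).

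Of 15 other cytokine and receptor genes tested, 3 rose and 1 fell in LXR DKO. Il18, the gene of an IL-1 family cytokine, measured 14.3, 15.6 and 21.6 RPKM in transgenic, 18.8, 15.7 and 18.7 in LXR DKO and 6.01, 8.36 and 7.53 in WT libraries. Against WT it rose by 1.12 ± 0.16 in transgenic (limma, adjusted p = 0.00546) and by 1.18 ± 0.16 in LXR DKO (adjusted p = 0.00403), with LXR DKO 2 the lowest LXR DKO library. The TNF family ligand gene Tnfsf9 rose by 0.83 ± 0.11 (adjusted p = 0.00347), and the receptor subunit gene Il6st by 0.48 ± 0.13 (adjusted p = 0.0492; up to 0.165 with 1 library left out, held only without LXR DKO 1). Csf2ra, a receptor gene for granulocyte-macrophage colony-stimulating factor, fell by 0.59 ± 0.10 in LXR DKO (adjusted p = 0.0103).

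Of 15 other chemokine and receptor genes tested, 1 rose in LXR DKO: Cxcr4, the receptor gene for CXCL12, at 2.21, 2.53 and 2.38 RPKM in transgenic, 2.81, 2.73 and 3.08 in LXR DKO and 0.980, 1.69 and 1.29 in WT libraries (LXR DKO minus WT 0.75 ± 0.13, limma, adjusted p = 0.00949). Of 13 other Toll-like receptor and sensor genes tested, Nod1, a cytosolic sensor of bacterial cell walls, fell by 1.03 ± 0.10 in LXR DKO (adjusted p = 0.000868) and by 0.89 ± 0.10 in transgenic against WT (adjusted p = 0.00203). Tlr7, a receptor gene for single-stranded RNA, rose by 0.67 ± 0.16 in LXR DKO (adjusted p = 0.0294), a call lost without any LXR DKO library, WT 1, WT 2 or transgenic 2 (adjusted p up to 0.099). In transgenic minus LXR DKO 0 genes of the 4 lists passed; in transgenic minus WT 0 rose and 1 fell among NF-kB pathway genes, 3 rose and 1 fell among cytokine and receptor genes, 2 rose and 1 fell among chemokine and receptor genes, and 2 rose and 1 fell among sensors, where 5.15% of all genes tested rose and 6.72% fell. Of these 11 calls, those of Il18, Csf2ra and Nod1 held with any 1 library left out. The other 8 were each lost without transgenic 1 and without transgenic 3, and in all without 8 of the 9 libraries for Tlr3, 7 for Ticam1 and Ccl25, 6 for Cxcl14, 5 for Irak2 and Il6st, 4 for Cxcr4 and 3 for Tnfsf9 (highest adjusted p 0.0614 to 0.148). The genes Tnfrsf1b, Il18, Tnfsf9, Csf2ra, Cxcr4 and Nod1 kept their calls for LXR DKO minus WT without LXR DKO 2 or any other single library.

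Markers of leukocytes were examined beside these genes, since in bulk samples fewer cells of a type and less RNA per cell cannot be told apart. The 14 neutrophil markers, none of them among the 35 genes, summed to 248, 239 and 289 RPKM in transgenic, 55.0, 206 and 94.2 in LXR DKO and 17.5, 25.7 and 128 in WT libraries. The largest part was Ltf, the lactoferrin gene, which made up 44.4% of the sum in WT 1 and 56.5% to 82.8% in the other libraries. It measured 186 to 228 RPKM in transgenic, 34.97 to 129 in LXR DKO libraries and 7.78 to 91.6 in WT libraries. Like the summed oviduct epithelium markers, it was highest in the transgenic libraries. LXR DKO 2 had more Ltf than WT 3 (129 against 91.6) but a lower sum of those markers (833 against 1462). A relation between them was not tested. The mean log2(RPKM + 1) of the 14 markers was 1.73, 1.57 and 1.84 in transgenic, 1.36, 2.28 and 1.70 in LXR DKO and 0.85, 0.89 and 1.62 in WT libraries, and 6 of the 14 were highest in LXR DKO 2. Fpr1, a formyl peptide receptor gene, measured 2.64, 1.68 and 4.39 RPKM in transgenic, 2.72, 7.2 and 7.2 in LXR DKO and 0.669, 0.367 and 3.05 in WT libraries. Its relative Fpr2 measured 0.649, 0.670 and 1.89 RPKM in transgenic, 1.55, 5.56 and 4.25 in LXR DKO and 0.894, 0.855 and 2.30 in WT libraries. Clec4d, a lectin receptor gene, reached 6.75 RPKM in LXR DKO 2 and at most 3.03 elsewhere. Mmp8 ran the other way, its transgenic libraries (8.27, 6.18 and 11.1 RPKM) all exceeding those of LXR DKO (1.39, 5.26 and 5.02). Its WT libraries held 0.159, 0.111 and 3.86 RPKM. For Lcn2 the transgenic libraries held 44.0, 27.9 and 37.1 RPKM. Its LXR DKO libraries held 6.24, 40.3 and 12.3 RPKM, LXR DKO 2 lying inside the transgenic range, and its WT libraries 1.92, 4.88 and 20.5. Ly6g was at most 0.444 RPKM, in LXR DKO 2, and Elane, Mpo and Stfa2l1 at most 0.0692. Of the 9 neutrophil markers tested, Cd177 rose in LXR DKO (0.66 ± 0.13, limma, adjusted p = 0.0147; 0.059 without LXR DKO 3), and Ltf and Mmp8 rose in transgenic against WT (adjusted p = 0.0372 and 0.0376; up to 0.114 and 0.123 with 1 library left out, Ltf holding only without WT 3, LXR DKO 1 or LXR DKO 2 and Mmp8 only without WT 3 or LXR DKO 1).

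The 11 macrophage markers summed to 375 to 524 RPKM in transgenic, 624 to 1138 in LXR DKO libraries and 513 to 1229 in WT libraries, with LXR DKO 2 and WT 3 highest and none at 0. Most of the sum in those libraries was Lyz2, at 896 RPKM in LXR DKO 2 and 878 in WT 3. By mean log2(RPKM + 1) of the 11 markers, LXR DKO 2 (4.18) was level with LXR DKO 3 (4.19) and below WT 3 (4.46). Cd68 fell in transgenic against LXR DKO (-1.15 ± 0.15, limma, adjusted p = 0.0402), a call lost without any 1 library except WT 3 (adjusted p up to 0.19). Against WT, the transgenic libraries had lower Cd68, a call held with any 1 library left out, and lower C1qa, C1qb and C1qc, calls lost without transgenic 2 or transgenic 3, among other libraries (highest adjusted p 0.0699 to 0.134). The 7 pan-leukocyte markers summed to 49.5 to 73.5 RPKM in transgenic, 77.6 to 182 in LXR DKO libraries and 72.2 to 129 in WT libraries, with LXR DKO 3 highest and every transgenic library below every LXR DKO library. The 5 monocyte markers summed to 5.12 to 6.86 RPKM in transgenic, 9.27 to 19.5 in LXR DKO libraries and 2.99 to 9.32 in WT libraries, LXR DKO 2 being the highest. Chil3 alone gave 8.99 RPKM of the sum in LXR DKO 2, and 2 of the 5 markers were highest there. The part of these cells in the levels of the 35 genes was not tested.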

How the data were processed

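The authors deposited 1 matrix of RPKM values with a column per library, and per the labels the 9 libraries fall into 3 genotypes of 3. Per the submitters' processing notes, which give no roles, the build was mm10 and the tools included DESeq2 1.2.8, HTSeq 0.5.4p5, HISAT2 2.1.0 and cutadapt. Values of genes with close copies or antisense partners are uncertain: the annotation, the strand setting and the handling of multiply mapped reads were not given in the sources used here. Transgenic columns were matched to samples by TG and replicate number. The deposited RPKM values were turned back into reads with GENCODE M21 exon lengths: at least 97.8% of values above 0 in each library came out whole to within 0.02 reads, but Rela and Nfkb2 gave no reads. Intervals and floors from reads cover counting error only.

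All 9 libraries entered 1 fit in limma 3.58.1 (R 4.3.3) on log2(RPKM + 1), pseudocount 1, with a mean-variance trend and genotype as the only factor, over the 16422 genes with at least 1 RPKM in at least 3 libraries. The Benjamini-Hochberg adjustment ran over all of them, with a threshold of 0.05. The pseudocount understates changes of low genes. The 35 genes, the role groups, the 4 pathway lists, the 13 cell type lists and the tests were chosen with earlier results of these data known. Per-library values are given for genes past the threshold, genes whose LXR DKO and WT libraries do not overlap, genes at least 2 times higher in LXR DKO 2 than in both other LXR DKO libraries, and genes that define a role; pathway genes are named where they passed, at most 4 per list and direction. Alternatives covered the pseudocount, filters, scaling, trend, genotypes in the fit, replicate block, array weights, voom on reads, and libraries left out.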

Additional observations from a re-analysis of the deposited data

How the results depend on the processing

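Under 21 alternative settings, 1640 of 1671 results for single genes kept their direction and their side of the threshold or stayed uncalled, 5 lost the call, 26 gained one and 0 called results reversed; 55 results without a call changed sign. All 5 losses were of Il1b in LXR DKO minus WT, which also failed without WT 3 and LXR DKO 2 together (1.40, adjusted p = 0.0635). The number of the 35 genes higher in LXR DKO than WT was 1, and became 0 with no filter, 2 with quantile normalization, 8 with array weights, 2 without LXR DKO 1 and WT 1 together, the oocyte-rich libraries, and 0 to 4 without a single library. The 8 with array weights were Il1b, Il1rn, Tnfaip3, Icam1, Tlr4, Myd88, S100a9 and Csf3r. Of the 8, Icam1 and S100a9 would have missed the filter without the LXR DKO libraries. The array weights were lowest for WT 3 (0.258) and LXR DKO 1 (0.465). The number lower in transgenic than LXR DKO was 0, and became 1 with array weights (Csf3r) and 1 without WT 3 and LXR DKO 2 together (Mmp9). The number higher in transgenic than WT was 0, and became 1 with array weights, 2 without WT 3 and LXR DKO 2 together and 0 to 1 without a single library. The number lower was 0, and became 1 with array weights, 1 without the oocyte-rich libraries (Ccl9), 1 without WT 3 and LXR DKO 2 together (Mmp9) and 0 to 1 without a single library. The share of all genes tested that passed was counted only for the main fit and, in LXR DKO minus WT, without LXR DKO 2. Counts under the other settings, array weights included, thus cannot be set against a general rise or fall in calls. The causes of these shifts were not tested. With voom on reads Rela and Nfkb2 had no value. LXR DKO 2 held the highest level of 24 genes, not 23, after median-of-ratios rescaling.

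The replicate numbers did not pair the samples: correlations of deviations from the genotype means ran from -0.29 to 0.67 over 9 same-numbered pairs and from -0.55 to 0.53 over 18 others. With the replicate block the counts of genes called were unchanged at 1, 0, 0, 0, 0 and 0. Few reads limited the lowest genes: Retnlg had at most 17 in any library, and a count of 0 allows up to 3 reads.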

Other observations

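Several genes outside the 35, picked after their values were seen, also stood out in LXR DKO 2. Cd14, the gene of a co-receptor for endotoxin, measured 35.8, 32.5 and 67.8 RPKM in transgenic, 45.1, 151 and 49.5 in LXR DKO and 37.3, 33.5 and 53.5 in WT libraries. Ccl24, the gene of an eosinophil-attracting chemokine, measured 3.58, 1.76 and 4.60 RPKM in transgenic, 2.04, 13.9 and 2.93 in LXR DKO and 0.596, 0.876 and 2.54 in WT libraries. Chil3, a gene of activated mouse macrophages, measured 0.608, 0.237 and 0.361 RPKM in transgenic, 0.482, 8.99 and 1.46 in LXR DKO and 0.0557, 0.265 and 1.47 in WT libraries. Ngp, a granule gene of maturing mouse neutrophils, measured 0, 0 and 0.0482 RPKM in transgenic, 0.429, 4.79 and 0.0474 in LXR DKO and 0, 0 and 0.0522 in WT libraries. The chemokine gene Cxcl5 reached 1.75 RPKM in LXR DKO 2 and at most 0.363 elsewhere. In LXR DKO minus WT, Cd14, Ccl24 and Chil3 did not pass (limma, adjusted p = 0.331, 0.175 and 0.281), and Ngp and Cxcl5 were too low to be tested.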
